A study of Mus musculus with 6 samples.

Results

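The SREBP sterol sensing machinery was taken as 7 genes, found by symbol in the deposited count table: Srebf1, Srebf2, Scap, Insig1, Insig2, Mbtps1 and Mbtps2. All 7 were among the 44788 genes listed and among the 19423 genes with enough counts to be tested. RNA-seq had been performed on whole ovaries of C57BL/6 J mice aged 8 weeks, 3 of them wild type (Bnc1+/+, replicates 1, 4 and 7) and 3 homozygous for a truncated Bnc1 (Bnc1tr/tr, replicates 1, 2 and 3). Basonuclin 1, the product of Bnc1, is a zinc finger protein of germ cells and epithelia. The truncation came from a short deletion that shifts the reading frame, and it was present in the whole mouse rather than in a single ovarian cell type. The comparison of the genotypes asks which ovarian transcripts differ when Bnc1 is truncated.

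SREBPs are transcription factors that are made as membrane proteins of the endoplasmic reticulum (ER), each bound to SCAP, an escort protein with a sterol-sensing domain. When sterols are plentiful, INSIG proteins hold the SCAP-SREBP complex in the ER. When sterols are scarce, SCAP carries SREBP in COPII vesicles to the Golgi, where the proteases MBTPS1 and MBTPS2 cut it in turn, and the released part enters the nucleus and raises genes of cholesterol synthesis, lipoprotein uptake and fatty acid synthesis. In the ovary, luteal and theca cells use cholesterol as the starting material of steroid hormones.

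Scap, Insig1 and Srebf2 were lower in Bnc1tr/tr ovaries and no member was called higher. Scap, the escort gene, was at 56.2% of its Bnc1+/+ mean. Insig1, the INSIG gene that is itself an SREBP target, was at 52.6%, and Srebf2, whose SREBP mainly drives cholesterol genes, was at 72.0%. Srebf1, Insig2, Mbtps1 and Mbtps2 did not pass the threshold. The 3 of 7 members called (adjusted p under 0.05 in the quasi-likelihood test of edgeR, with p-values adjusted after Benjamini and Hochberg over all genes tested) stood beside 7.06% of all genes tested that were called in either direction, 4.19% that were called lower and 2.88% that were called higher. With library size as the sole scaling, 617 genes were called lower and 1112 higher, against 813 and 559 with TMM scaling, and the members called were Scap, Insig1 and Srebf2 again. CPM, the counts of a gene scaled to a common library total with TMM factors, did not overlap between the genotypes for 5 of the 7 members and for 30.8% of all genes tested. In whole ovaries, fewer cells of a type and less RNA per cell cannot be told apart. The count depended on the ovaries: as each was left out in turn, 1 to 2 members were called, Scap each time. In the same fits 320 to 1282 of all genes were called, against 1372 with all ovaries. Without Bnc1+/+ replicate 1 and Bnc1tr/tr replicate 3, whose levels of oviduct markers stood apart, edgeR called 0 members and 304 of all 19581 genes tested. In that fit 3 members (Scap, Insig1 and Srebf2) had an unadjusted p under 0.05.

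Sequences upstream of the start sites are shown for the 3 called members and for Insig2, the paralog of Insig1, because SREBPs act through short promoter motifs, often beside a box bound by the factor NF-Y. RefSeq windows of 300 bases, from 250 before to 50 after a start site, were found for all 7 members, 12 windows in all. They were searched on both strands for TCACNCCAC (a form of the sterol regulatory element), CCAAT (the box bound by NF-Y) and CACGTG (an E-box, which reads the same on both strands and which SREBPs can also bind), and no matches overlapped in the members' windows. Bases before both the RefSeq start site and the GENCODE M21 start of the gene are printed from GRCm38.p6, 5′ to 3′ along the gene, with matches in capitals. The capitals ATTGG are CCAAT on the other strand. The Insig1 stretch is chr5:28071162-28071362 on the + strand, the Srebf2 stretch is chr15:82147019-82147180 on the + strand, the Scap stretch is chr9:110333038-110333287 on the + strand and the Insig2 stretch is chr1:121332590-121332839 on the - strand.
Insig1: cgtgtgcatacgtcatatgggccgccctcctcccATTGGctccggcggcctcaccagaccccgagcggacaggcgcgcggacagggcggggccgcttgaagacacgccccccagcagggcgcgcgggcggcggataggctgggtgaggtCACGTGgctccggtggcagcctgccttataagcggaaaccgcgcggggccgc
Srebf2: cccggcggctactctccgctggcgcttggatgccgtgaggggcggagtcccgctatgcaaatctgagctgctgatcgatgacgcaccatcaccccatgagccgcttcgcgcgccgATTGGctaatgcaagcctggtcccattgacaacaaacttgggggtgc
Scap: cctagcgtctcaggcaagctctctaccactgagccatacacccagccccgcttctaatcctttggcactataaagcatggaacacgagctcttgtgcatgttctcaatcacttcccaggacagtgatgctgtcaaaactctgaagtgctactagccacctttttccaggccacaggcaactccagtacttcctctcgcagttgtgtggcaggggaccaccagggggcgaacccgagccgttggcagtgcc
Insig2: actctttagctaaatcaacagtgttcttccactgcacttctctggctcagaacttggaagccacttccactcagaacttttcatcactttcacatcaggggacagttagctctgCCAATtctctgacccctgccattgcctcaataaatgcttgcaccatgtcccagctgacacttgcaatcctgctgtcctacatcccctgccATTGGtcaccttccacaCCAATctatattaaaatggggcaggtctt
The INSIG paralogs differed in these letters. Insig1 had a CCAAT box at -216 and an E-box at -101, counted from the RefSeq start site to the first base of the match, and Insig2 had CCAAT boxes at -136, -46 and -29 in the first of its 3 windows and no E-box. Srebf2 had a CCAAT box at -135. The printed Scap stretch held none of the motifs, and an E-box lay 28 bases after the first RefSeq start site of Scap, at -40 from the second.

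Over all windows of a gene, a CCAAT box was found in 4 of the 7 members (Srebf1, Srebf2, Insig1 and Insig2), against 41.1% of the 27025 genes with a window. An E-box was found in 2 members (Scap and Insig1), against 8.09% of all genes with a window. TCACNCCAC was found in the windows of 0 members, against 1.44% of all genes with a window, and those of Mbtps1 and Mbtps2 held none of the motifs searched. Among 24 sterol genes known as SREBP targets, 16 had a window, and 15 of these held a CCAAT box, 3 an E-box and 1 TCACNCCAC. Of 19 lipogenic targets, 16 had a window, and 10 of these held a CCAAT box and 2 an E-box. Targets without an entry included Fdps, Fdft1, Sqle, Stard4, Scd1, Scd2 and Fads1. A match describes the letters and does not show that a factor was bound. The absence of TCACNCCAC does not show that a sterol regulatory element is missing, since other forms of it were not searched. Even among the 16 sterol targets with a window, 1 held these exact letters.

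Between 25247770 and 34406296 reads per ovary had been counted on genes, and each member had at least 440 counts in every ovary. The ribosomal RNA gene Rn18s-rs5 took 3.47% of the counts in Bnc1+/+ replicate 1 and 0.463% to 1.37% in the other ovaries. Bnc1 itself was at 13.9, 13.4 and 13.1 CPM in Bnc1+/+ and at 18.7, 13.7 and 11.5 CPM in Bnc1tr/tr ovaries (log2 fold change 0.12, adjusted p = 0.733 in the edgeR test), and counts over the whole gene cannot show the short deletion. Oviduct epithelium markers were high in Bnc1+/+ replicate 1 and Bnc1tr/tr replicate 3, with a summed level of 149 and 541 CPM against 12.9 to 32.4 CPM in the other ovaries. Adipocyte markers were high in Bnc1tr/tr replicates 1 and 2, with 444 and 336 CPM against 94.2 to 177 CPM in the other ovaries. The called members are therefore also given without the ovaries high in oviduct markers. That omission keeps the Bnc1tr/tr ovaries high in adipocyte markers, beside Bnc1+/+ replicates 4 and 7 with 119 and 177 CPM of these markers. The part of the oviduct and adipocyte markers in the results was not tested.

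**Figure D1:**
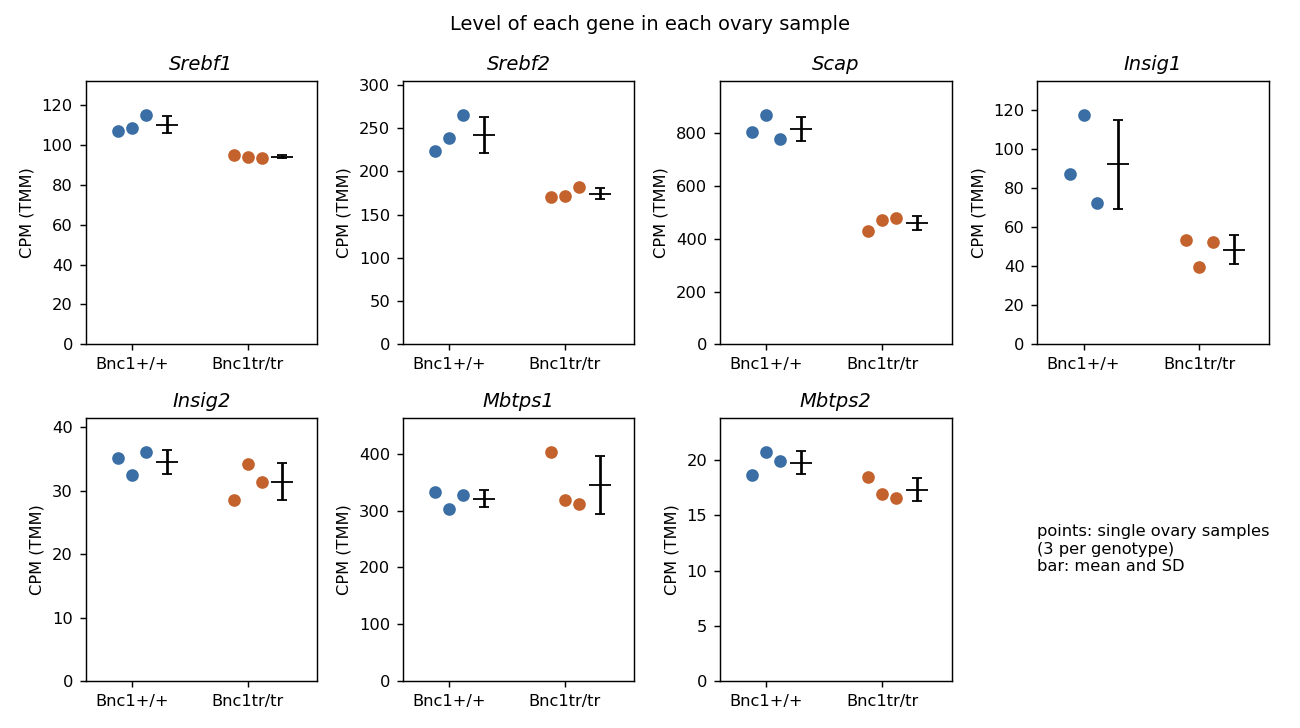
Level of each member in each ovary sample, with genotype on the x axis and TMM-scaled CPM from 0 on the y axis. Points are single samples and the bar beside them is the mean with SD (n = 3). Scap, Insig1, Srebf2, Srebf1 and Mbtps2 show no overlap between genotypes, while Insig2 and Mbtps1 overlap.

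Srebf2, on chromosome 15 of GRCm38 from 82147181 to 82205379 on the + strand, encodes a precursor of 1130 amino acids and holds the miRNA gene Mir33, on which 0 reads were counted in each ovary. Gm49502 overlaps Srebf2 on the same strand and had no counts of its own under that symbol. Srebf2 was measured at 223, 238 and 265 CPM in Bnc1+/+ replicates 1, 4 and 7 and at 170, 172 and 181 CPM in Bnc1tr/tr replicates 1, 2 and 3. The genotypes did not overlap, and the Bnc1tr/tr ovaries lay close to each other. The log2 fold change was -0.47 with a standard error of 0.09 and a 95% interval from -0.68 to -0.27 (adjusted p = 0.0241 in the quasi-likelihood test of edgeR, Benjamini-Hochberg adjusted). The call was lost without Bnc1+/+ replicate 4 or 7 (adjusted p = 0.1 and 0.0708 in the edgeR test) and without Bnc1tr/tr replicate 2 or 3 (0.0572 and 0.0684), while the log2 fold change stayed between -0.54 and -0.41 as each ovary was left out in turn. Without the ovaries high in oviduct markers, with 2 ovaries per genotype left, it was -0.57 and the adjusted p was 0.105 in the edgeR test.

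Srebf1, whose products are SREBP-1a and SREBP-1c, lies on chromosome 11 from 60199089 to 60222581 on the - strand. It encodes, in its longest form, 1134 amino acids, and SREBP-1c drives mainly lipogenic genes. SREBP-1a and SREBP-1c start at different promoters and are not separated in counts per gene. Srebf1 was measured at 107, 109 and 115 CPM in Bnc1+/+ and at 95.2, 94.2 and 93.4 CPM in Bnc1tr/tr ovaries. All Bnc1tr/tr ovaries were under all Bnc1+/+ ovaries by a small step. The log2 fold change was -0.23 with a 95% interval from -0.39 to -0.06, an unadjusted p of 0.0151 and an adjusted p of 0.107 in the edgeR test, so the difference was not called. The end of Srebf1 overlaps Rai1 on the opposite strand, whose counts of 2561 to 3600 were close in size to those of Srebf1, and whether strand was used in counting is not given in the sources used here.

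The ratio of Srebf1 to Srebf2 counts within an ovary, which library scaling cannot change, was 0.479, 0.456 and 0.434 in wild type and was 0.559, 0.549 and 0.515 with the truncation. It was higher in every Bnc1tr/tr ovary than in any Bnc1+/+ ovary. The log2 ratio differed by 0.25 (exact two-sided permutation test, p = 0.1, the smallest that 3 ovaries against 3 can give, and adjusted p = 0.15 over the 3 ratios tested here).

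Scap lies on chromosome 9 from 110333288 to 110384950 on the + strand and encodes 1276 amino acids. In GENCODE M21 it overlaps 5830462I19Rik on the opposite strand, which had no counts of its own under that symbol. Reads of that gene could not be told apart from those of Scap if strand was not used. Scap was measured at 807, 869 and 779 CPM in Bnc1+/+ and at 428, 473 and 480 CPM in Bnc1tr/tr ovaries. The highest Bnc1tr/tr ovary lay well under the lowest Bnc1+/+ ovary, and the ovaries of a genotype lay close together. The mean fell from 818 ± 46.0 to 460 ± 28.1 CPM (SD, n = 3), and the log2 fold change was -0.83 with a standard error of 0.09 and a 95% interval from -1.04 to -0.62 (adjusted p = 0.00366 in the quasi-likelihood test of edgeR, Benjamini-Hochberg adjusted). The call held as each ovary was left out in turn. Without the ovaries high in oviduct markers the log2 fold change was -0.88 and the adjusted p was 0.0555 in the edgeR test.

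Insig1 lies on chromosome 5 from 28071363 to 28078662 on the + strand and encodes 259 amino acids. It was measured at 87.2, 118 and 72.4 CPM in Bnc1+/+ and at 53.4, 39.8 and 52.5 CPM in Bnc1tr/tr ovaries. All Bnc1tr/tr ovaries were under all Bnc1+/+ ovaries, but the Bnc1+/+ ovaries were widely spread, with replicate 4 the highest. The coefficient of variation of Insig1 in Bnc1+/+ was 24.9%, against 3.83% to 8.71% for the other members. The log2 fold change was -0.93 with a standard error of 0.19 and a 95% interval from -1.37 to -0.49 (adjusted p = 0.0316 in the quasi-likelihood test of edgeR, Benjamini-Hochberg adjusted). The call was lost without Bnc1+/+ replicate 1 or 4 (adjusted p = 0.0646 and 0.0934 in the edgeR test) and without Bnc1tr/tr replicate 1, 2 or 3 (0.0507, 0.0659 and 0.072). Without the ovaries high in oviduct markers the log2 fold change was -1.04 and the adjusted p was 0.124 in the edgeR test.

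Insig2, whose protein also retains SCAP but which is not induced by SREBPs as Insig1 is, lies on chromosome 1 from 121304353 to 121332589 on the - strand and encodes 225 amino acids. Gm37174 overlaps Insig2 on the opposite strand and likewise had no counts under that symbol. Insig2 was measured at 35.2, 32.5 and 36.1 CPM in Bnc1+/+ and at 28.5, 34.3 and 31.4 CPM in Bnc1tr/tr ovaries. The genotypes overlapped. The log2 fold change was -0.14 with a 95% interval from -0.37 to 0.09 (adjusted p = 0.435 in the edgeR test). The fall estimated for Insig1 lay outside this interval.

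The ratio of Insig1 to Insig2 counts was 2.48, 3.62 and 2.01 in wild type and 1.87, 1.16 and 1.67 with the truncation, where every Bnc1tr/tr ovary was under every Bnc1+/+ ovary. The mean log2 ratio went from 1.39 (Bnc1+/+) to 0.62 (Bnc1tr/tr), a difference of -0.77 (exact two-sided permutation test, p = 0.1, the smallest possible, and adjusted p = 0.15). The counts of Insig1 plus Insig2, the retention genes, were 0.152, 0.173 and 0.139 of the Scap count in wild type and 0.192, 0.157 and 0.175 of it with the truncation. Here the genotypes overlapped, with a log2 difference of 0.18 (exact two-sided permutation test, p = 0.2, adjusted p = 0.2).

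Neither protease gene was called. Mbtps1, on chromosome 8 from 119508156 to 119558735 on the - strand, encodes the first protease, of 1052 amino acids, and was measured at 332, 303 and 328 CPM in Bnc1+/+ and at 403, 318 and 312 CPM in Bnc1tr/tr ovaries. Bnc1tr/tr replicate 1 was above the rest, and the other Bnc1tr/tr ovaries lay within the Bnc1+/+ range. The log2 fold change of Mbtps1 was 0.10 with a 95% interval from -0.17 to 0.37 (adjusted p = 0.642 in the edgeR test), and it was -0.028 without Bnc1tr/tr replicate 1.

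Mbtps2, on the X chromosome from 157535371 to 157598715 on the - strand, encodes the second protease, of 515 amino acids, which cuts within the membrane. It was measured at 18.6, 20.7 and 19.9 CPM in Bnc1+/+ and at 18.5, 16.9 and 16.6 CPM in Bnc1tr/tr ovaries. The groups were separated narrowly, between Bnc1+/+ replicate 1 and Bnc1tr/tr replicate 1. The log2 fold change of Mbtps2 was -0.19 with a 95% interval from -0.42 to 0.04 (adjusted p = 0.283 in the edgeR test). Yy2 lies inside Mbtps2 on the same strand, and its own counts of 109 to 140 were up to 30.5% of those of Mbtps2, so the split of reads between these genes is uncertain.

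**Figure D2:**
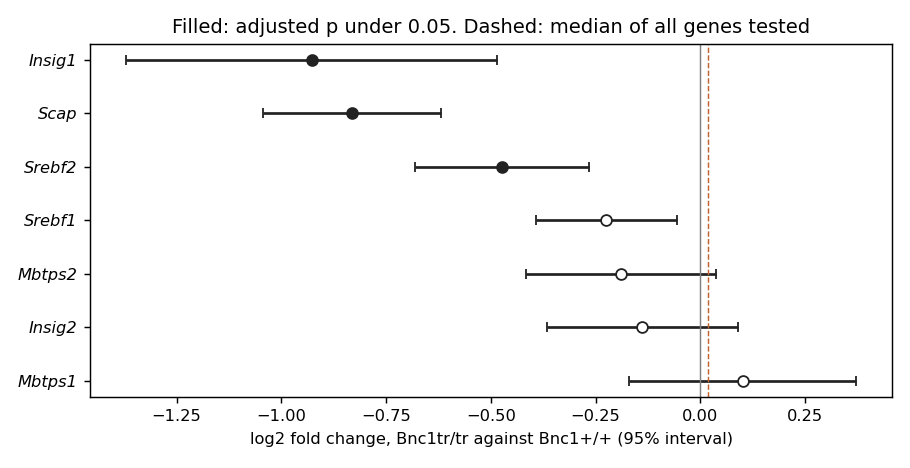
Log2 fold change of each member between Bnc1tr/tr and Bnc1+/+ ovaries on the x axis, with its 95% interval from the edgeR fit over 3 ovaries per genotype. Filled points have an adjusted p under 0.05, and the dashed line is the median of all genes tested, 0.018. The intervals of Insig1, Scap, Srebf2 and Srebf1 lie wholly under 0, and those of Mbtps2, Insig2 and Mbtps1 cross it.

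Levels of different members were compared as CPM per kilobase (kb) of merged exons. In Bnc1+/+ ovaries Scap was highest at 110 ± 6.19 CPM per kb (SD, n = 3), 3.26 times the level of Srebf2, the next in order, at 33.7 ± 2.94 CPM per kb. Srebf2, Mbtps1 (30.5 ± 1.49 CPM per kb) and Insig1 (29.9 ± 7.44 CPM per kb) followed with overlapping ranges, so their order was not resolved. Srebf1 (19.6 ± 0.748 CPM per kb), Insig2 (9.96 ± 0.538 CPM per kb) and Mbtps2 (1.96 ± 0.104 CPM per kb) were each separated from the gene above.

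In Bnc1tr/tr ovaries Scap was again highest, at 61.8 ± 3.78 CPM per kb (SD, n = 3), 1.89 times the level of the next gene, which was Mbtps1 at 32.7 ± 4.84 CPM per kb. Srebf2 (24.3 ± 0.847 CPM per kb) came after Mbtps1 and did not overlap it. Srebf1 (16.7 ± 0.161 CPM per kb) and Insig1 (15.7 ± 2.45 CPM per kb) overlapped each other. Insig2 (9.05 ± 0.830 CPM per kb) and Mbtps2 (1.72 ± 0.0999 CPM per kb) closed the order, each separated from the gene above. With the length of the longest transcript in place of merged exons the order of means was the same, the Bnc1+/+ mean of Scap was 194 CPM per kb, and Insig1 no longer overlapped Mbtps1 in Bnc1+/+ or Srebf1 in Bnc1tr/tr ovaries.

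**Figure D3:**
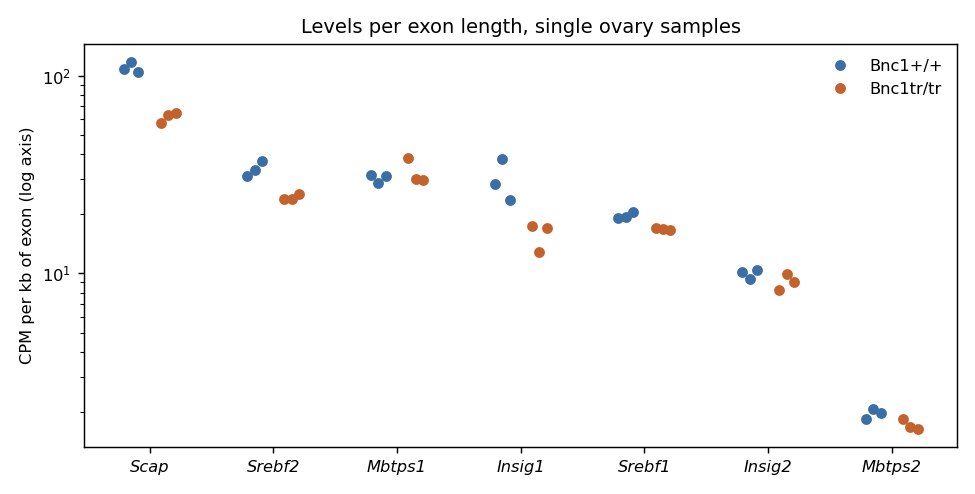
Level of each member as CPM per kilobase of merged exons, on a logarithmic y axis. Points are single ovary samples, 3 per genotype, and members are ordered by their Bnc1+/+ mean. Scap lies above the other members in both genotypes, from 105 to 117 CPM per kb in Bnc1+/+ and from 57.5 to 64.4 CPM per kb in Bnc1tr/tr.

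Over the 6 ovaries the log2 CPM of Srebf1 and Srebf2 varied together (Pearson r = 0.982), as did those of Scap and Srebf2 (r = 0.932) and of Scap and Insig1 (r = 0.897). Mbtps1 had negative correlations with the other members, from -0.606 with Insig2 to -0.0202 with Mbtps2. These values are descriptions over 6 ovaries that share the genotype contrast and the libraries. Among 16749 genes with a mean of at least 1 CPM, the 3 genes most like Scap were Mgmt (r = 0.9999), Ano10 (r = 0.9994) and LOC102635490 (r = 0.9989). Those most like Insig1 were Rdh11, Gfm1 and Cela3b (r = 0.9944 to 0.9907), and those most like Srebf2 were Ephx2, Rab11fip4 and Rnft2 (r = 0.9961 to 0.9946). For Srebf1 they were Fli1, Ltbp1 and Efnb2, for Insig2 Map3k1, Cdr2l and Gm17322, for Mbtps1 Gm6140, Sh3rf3 and Aff1, and for Mbtps2 Snora64, Ppp1r2-ps4 and Il15ra, all with r of at least 0.9879. With this few ovaries, r near 1 can be found for many genes.

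The genes that act with the members were described by lists, each by how many of its genes were called and by its median log2 fold change beside that of all genes tested, 0.018. Of all 19423 genes tested, edgeR called 7.06%, and 4698 had an unadjusted p under 0.05 in its test. Of the same 19423 genes, DESeq2 called 2420 and limma-voom 1303. The counts of each list stand beside these. The COPII coat genes, which build the vesicles that carry SCAP and SREBP, had 0 of 14 genes called in edgeR's test, with 3 at an unadjusted p under 0.05, 1 called by DESeq2 (Sar1b, a GTPase that starts coat assembly) and 0 by limma-voom. Their median was -0.06, and it was 0.03 with library size as the sole scaling. Sec31a, the outer coat gene with the most counts of the list, was at 207, 206 and 224 CPM in Bnc1+/+ and at 271, 211 and 222 CPM in Bnc1tr/tr ovaries. These ranges overlapped, and the log2 fold change of Sec31a was 0.15 with a 95% interval from -0.11 to 0.40 (adjusted p = 0.463 in the edgeR test).

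Among 17 genes of ER-associated degradation that act in the sterol pathway, 2 were called, both lower (median of the list -0.07, and 0.02 with library size as the sole scaling). Of all genes tested, 4.19% were called lower. Usp20, a deubiquitinase, was at 57.5, 59.3 and 64.9 CPM in Bnc1+/+ and at 43.8, 47.9 and 42.7 CPM in Bnc1tr/tr ovaries (log2 fold change -0.44, SE 0.09, adjusted p = 0.0292 in the edgeR test). Usp20 did not overlap between genotypes, but 0 genes of the list were called when a single Bnc1+/+ ovary, or Bnc1tr/tr replicate 1 or 3, was left out, and 1 without Bnc1tr/tr replicate 2. Without the ovaries high in oviduct markers 0 were called.

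Of 18 other genes known to act on SCAP or SREBP, among them the Golgi anchor Paqr3, the nuclear ubiquitin ligase gene Fbxw7 and the NF-Y subunit genes, 0 were called by edgeR or limma-voom, 3 had an unadjusted p under 0.05 and 2 were called by DESeq2, Lpin1 and Nfya, both higher. Their median log2 fold change was 0.07. Hsp90b1, an ER chaperone and the gene of this list with the most counts, was at 659, 731 and 624 CPM in Bnc1+/+ and at 783, 724 and 859 CPM in Bnc1tr/tr ovaries (log2 fold change 0.23, 95% interval from -0.01 to 0.47, adjusted p = 0.222 in the edgeR test).

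The sterol genes that SREBPs are known to raise were lower as a group. Of 24 genes of cholesterol synthesis and uptake, 20 were called, all lower, and the median log2 fold change was -1.30. The summed level of the list was 3473, 4475 and 3899 CPM in Bnc1+/+ and 1168, 1416 and 1619 CPM in Bnc1tr/tr ovaries, with no overlap. Luteal markers were lower in the same ovaries, with 9 of 12 called and a median log2 fold change of -1.69, and their part in the levels of the sterol and lipogenic genes was not tested. All 24 sterol genes had a negative log2 fold change, those not called included, among them Sc4mol (-0.76, adjusted p = 0.0588 in the edgeR test) and Tmem97 (-0.12, adjusted p = 0.704), named after their values were seen. Without Bnc1+/+ replicate 4, 13 genes were called, and without the ovaries high in oviduct markers 14.

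Hsd17b7, whose enzyme acts in cholesterol synthesis and also reduces estrone, had the largest fall of the list. It was at 415, 775 and 998 CPM in Bnc1+/+ and at 91.1, 28.4 and 34.8 CPM in Bnc1tr/tr ovaries (log2 fold change -3.83, SE 0.52, adjusted p = 0.00683 in the edgeR test). The groups were far apart, although each was also spread widely within itself. Idi1, the isomerase of isopentenyl diphosphate, was at 7.91, 15.4 and 10.7 CPM against 1.53, 2.12 and 3.06 CPM (log2 fold change -2.34, adjusted p = 0.0075). Dhcr7, the last enzyme on the path to cholesterol and a protein with its own sterol-sensing domain, was at 366, 388 and 318 CPM against 46.7, 117 and 117 CPM (log2 fold change -1.93, adjusted p = 0.0147). Bnc1tr/tr replicate 1 was the lowest ovary for Idi1 and Dhcr7, as it was for the summed level of the list. Lss, lanosterol synthase (log2 fold change -1.87), Fdps, farnesyl diphosphate synthase (-1.77), and Mvd, which makes isopentenyl diphosphate (-1.73), made up the remaining named falls.

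Of 19 lipogenic genes of the SREBP-1 type, 8 were called lower and 1 higher, with a median log2 fold change of -0.48. A negative log2 fold change was found for 14 and a positive one for 5, up to 1.38 in a gene not called. Elovl5, a fatty acid elongase, was at 481, 654 and 672 CPM in Bnc1+/+ and at 270, 223 and 217 CPM in Bnc1tr/tr ovaries (log2 fold change -1.35, SE 0.15, adjusted p = 0.00392 in the edgeR test). Acly, which makes cytosolic acetyl-CoA, was at 1088, 1074 and 801 CPM against 352, 481 and 487 CPM (log2 fold change -1.17, adjusted p = 0.00861). For both the groups were separated by a wide gap. Elovl6, a second elongase (log2 fold change -1.16), Acss2, an acetyl-CoA synthetase (-1.03), Scd2, a desaturase and the gene of the list with the most counts (-0.83), and Gpam, the first acyltransferase of glycerolipid synthesis (-0.70), were also lower.

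The gene called higher, named after its values were seen, was Acacb, whose enzyme makes the malonyl-CoA that restrains fatty acid oxidation. It was at 70.9, 65.3 and 67.9 CPM in Bnc1+/+ and at 106, 88.4 and 92.3 CPM in Bnc1tr/tr ovaries (log2 fold change 0.49, adjusted p = 0.0228 in the edgeR test). The list had 0 genes called higher by edgeR, Acacb included, when Bnc1+/+ replicate 1, 4 or 7 or Bnc1tr/tr replicate 3 was left out. Without the ovaries high in oviduct markers, 2 lipogenic genes were called, both lower. The same omission left 304 of all genes called, against 1372 with all ovaries. It kept Bnc1tr/tr replicates 1 and 2, the ovaries high in adipocyte markers, and the part of adipocytes in the lipogenic levels was not tested.

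Other proteins carry a sterol-sensing domain like that of SCAP, and of 12 such genes 9 could be tested. Called were 2 genes, both lower and both also in the sterol list, among them Dhcr7 with the values given above, and the median of the list was 0.06. Without Bnc1+/+ replicate 4, and without the ovaries high in oviduct markers, 1 gene of the list was called. Ptchd1, Ptchd3 and Ptchd4, not tested, were at 0 in some ovaries.

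Other substrates of MBTPS1 were described because their targets depend on the same proteases. Of 8 substrate genes, among them Atf6 of the ER stress response, 0 were called by edgeR or limma-voom, 2 had an unadjusted p under 0.05 and 2 were called by DESeq2, Creb3 lower and Creb3l3 higher. Their median was 0.02. Creb3l2, with the most counts of the list, was at 182, 187 and 203 CPM in Bnc1+/+ and at 276, 216 and 187 CPM in Bnc1tr/tr ovaries, which overlapped (log2 fold change 0.25, 95% interval from -0.08 to 0.58, adjusted p = 0.331 in the edgeR test).

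The list of 15 genes of the ATF6 response, named ATF6 chaperones for short, also held genes that are not chaperones, among them Xbp1 and Syvn1. Syvn1 stood in the degradation list too, and Hsp90b1 in that of the other partners. Of the 15, 4 were called higher and 0 lower, and 14 had a positive log2 fold change, with a median of 0.23. Creld2, a secreted ER stress protein, was at 73.6, 83.8 and 67.1 CPM in Bnc1+/+ and at 123, 112 and 139 CPM in Bnc1tr/tr ovaries (log2 fold change 0.74, SE 0.12, adjusted p = 0.0126 in the edgeR test). Manf, a secreted ER stress protein (log2 fold change 0.49, adjusted p = 0.0422), Hyou1, a large chaperone (0.47, adjusted p = 0.0386), and Dnajc3, a co-chaperone (0.41, adjusted p = 0.0402), were the other called genes. Calr, with the most counts of the list, was at 1171, 1230 and 1066 CPM against 1032, 965 and 1092 CPM, which overlapped (log2 fold change -0.17, 95% interval from -0.39 to 0.06). The count of 4 was 0 without Bnc1+/+ replicate 7 or without the ovaries high in oviduct markers, 1 without Bnc1+/+ replicate 1 or 4 or Bnc1tr/tr replicate 3, and 2 without Bnc1tr/tr replicate 1.

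Liver X receptors, which sense oxidized sterols and raise Srebf1, were listed with their targets, of which 11 of 13 genes could be tested. By edgeR and limma-voom 0 were called, 5 had an unadjusted p under 0.05, and DESeq2 called 3, Abca1 higher and Abcg1 and Lpcat3 lower. The median of the list was 0.08. Apoe, with the most counts of the list, was at 670, 730 and 799 CPM in Bnc1+/+ and at 596, 1042 and 632 CPM in Bnc1tr/tr ovaries, which overlapped (log2 fold change 0.05, 95% interval from -0.44 to 0.53, adjusted p = 0.92 in the edgeR test).

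**Figure D4:**
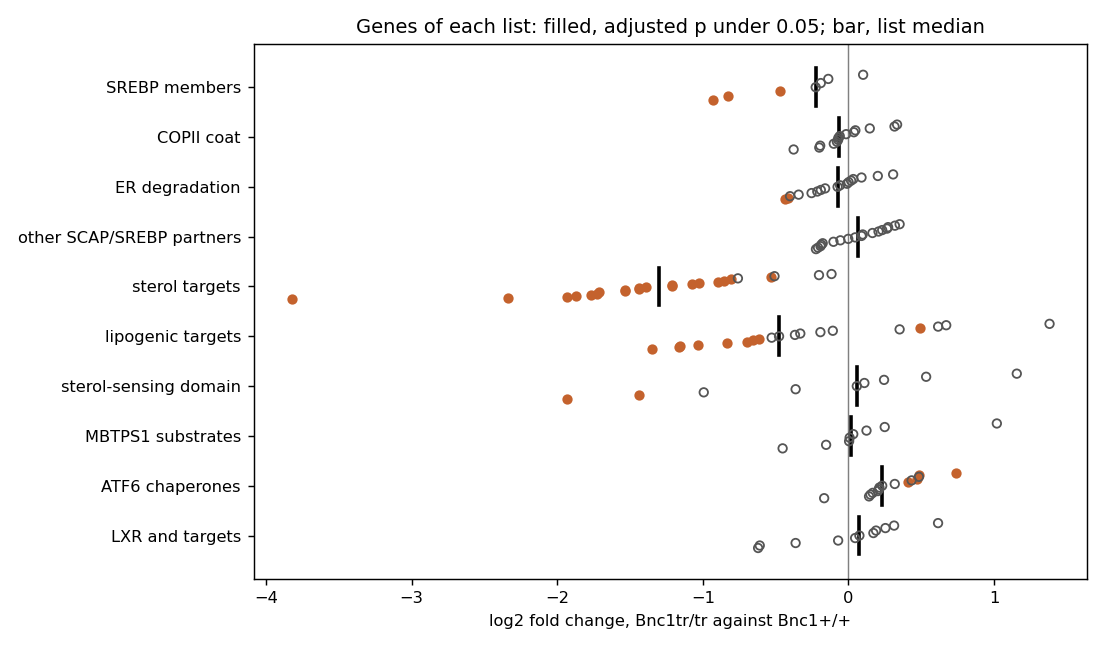
Log2 fold change between Bnc1tr/tr and Bnc1+/+ ovaries on the x axis for every tested gene of each list, from the edgeR fit over 3 ovaries per genotype. Filled points have an adjusted p under 0.05 and the bar is the median of the list. The sterol targets lie furthest to the left with a median of -1.30 and the lipogenic targets next with -0.48, while the median of the ATF6 chaperones is 0.23.

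Markers of luteal cells, which take up and make cholesterol for progesterone, were lower together with Scap, Insig1, Srebf2 and the sterol targets. Of 12 luteal markers 9 were called, all lower, and none was at 0 in any ovary. Their summed level was 24080 to 28790 CPM in Bnc1+/+ and 7506 to 13150 CPM in Bnc1tr/tr ovaries. The largest falls were those of Lhcgr, the luteinizing hormone receptor (log2 fold change -3.01), Sfrp4 (-2.54), Runx2 (-2.34), Star, which carries cholesterol into mitochondria (-2.23), Ptgfr, the prostaglandin F receptor (-2.05), and Scarb1, the HDL receptor (-1.86). Cyp11a1, the side-chain cleavage enzyme and the marker with the most counts, was at 9045, 10620 and 10780 CPM in Bnc1+/+ and at 1973, 4817 and 3839 CPM in Bnc1tr/tr ovaries (log2 fold change -1.52, adjusted p = 0.0261 in the edgeR test).

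Endothelium markers were also lower. Of 7, the genes Pecam1, Cdh5, Kdr and Tek were called (log2 fold changes -0.85, -0.73, -0.66 and -0.58), and the summed level was 604 to 789 CPM in Bnc1+/+ and 400 to 463 CPM in Bnc1tr/tr ovaries. The part of luteal and endothelial cells in the lower levels of the members and of the sterol and lipogenic targets was not tested.

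Other marker lists moved less or the other way, and their counts stand beside 7.06% of all genes tested that were called in either direction. Granulosa markers had 2 of 12 genes called, Amh and Amhr2, both higher (summed level 3887 to 5044 CPM in Bnc1+/+ and 4406 to 6668 CPM in Bnc1tr/tr). Oocyte markers had 3 of 13 called, Oosp1, Bmp15 and Gdf9, all higher (762 to 966 CPM and 906 to 1379 CPM), and theca markers 1 of 6, Srd5a1, higher (1630 to 1984 CPM and 1867 to 2764 CPM). Of 10 adipocyte markers Plin1 was called higher and Lipe lower. In edgeR's test 0 genes were called of 9 stromal markers (3 at an unadjusted p under 0.05, 3 by DESeq2), 8 macrophage markers (1 and 0), 9 tested oviduct markers (1 and 1) and 5 red blood cell markers (1 and 0), and limma-voom called 0 of these. The oviduct marker Sntn was at 0 in Bnc1tr/tr replicate 1.

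**Figure D5:**
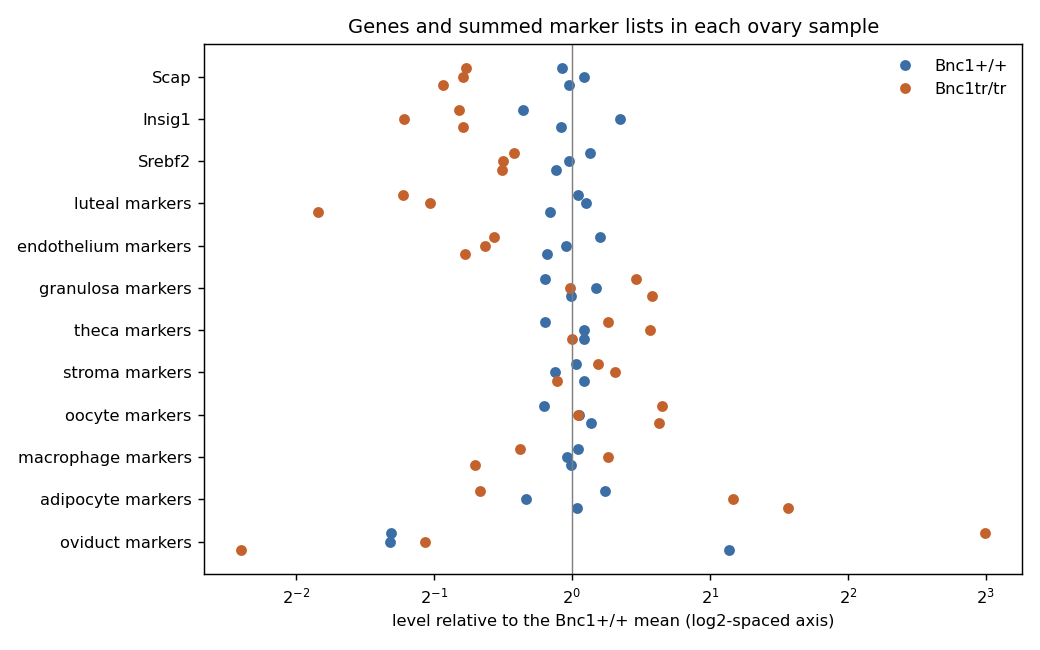
Level of the 3 called members and summed level of each marker list other than red blood cells in each ovary sample, relative to the Bnc1+/+ mean, on an x axis spaced by log2. Luteal and endothelium markers separate the genotypes as Scap, Insig1 and Srebf2 do, while the oviduct sum stands apart in Bnc1tr/tr replicate 3 (541 CPM) and the adipocyte sum in Bnc1tr/tr replicates 1 and 2 (444 and 336 CPM).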

How the data were processed

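Total RNA of whole ovaries was extracted with TRIzol by the authors, made into single-end Ion Total RNA-Seq libraries and sequenced on an Ion Proton. The authors deposited raw counts, whole numbers of reads per gene symbol and ovary without normalization. The submitters' notes name mm10 and Sscrofa10.2 without a role, and the aligner, counting tool, annotation and use of strand are not given in the sources used here. Nothing in the labels ties single ovaries to animals or litters, so p-values measure the spread between these samples.

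Genes were filtered with filterByExpr (minimum count 10) and compared in R 4.3.3 with edgeR 4.0.16 (glmQLFit and glmQLFTest, two-sided, TMM, Benjamini-Hochberg over 19423 genes, threshold 0.05), after a test on simulated data. Replicates differed by more than counting error (chi-square per degree of freedom 16.7 to 64.0). Exact permutation tests compared ratios of counts. Positions and exon lengths came from GRCm38 with GENCODE M21, promoter windows from RefSeq. Of 233 listed symbols, 6 were matched through RefSeq synonyms. Likeness used log2(CPM + 0.5). The alternatives were DESeq2 1.42.0, limma-voom (limma 3.58.1), scaling by DESeq2 size factors or by library size alone, no filter, at least 10 counts in every ovary, an absolute log2 fold change over 0.5 as well, the longest transcript as gene length, and leaving out each ovary in turn. Leaving out Bnc1+/+ replicate 1 and Bnc1tr/tr replicate 3 together was chosen after seeing the data.

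The named genes were the 7 members, from each list the called genes up to the 6 largest absolute log2 fold changes and the gene with the most counts, the 3 genes most like each member, and Bnc1. The values of some listed genes are not reported here. The members and lists were chosen with earlier results of these data known.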

Additional observations from a re-analysis of the deposited data

How the results depend on the processing

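Under the other normalizations, filters and tools, Scap, Insig1 and Srebf2 were called each time and the other members never, and an absolute log2 fold change over 0.5 as well left 2, Scap and Insig1. The calls depended on the ovaries. As each was left out in turn, 1 to 2 members were called, with Scap among them each time. The log2 fold changes ranged from -0.54 to -0.41 for Srebf2, from -1.09 to -0.72 for Insig1, and from -0.028 to 0.17 for Mbtps1, which turned negative without Bnc1tr/tr replicate 1. Without the ovaries highest in oviduct markers (Bnc1+/+ replicate 1 and Bnc1tr/tr replicate 3), 0 members, 0 degradation genes, 0 ATF6 chaperones, 1 sterol-sensing domain gene, 2 lipogenic genes, 14 sterol targets and 304 of all genes were called, with log2 fold changes of -0.57 for Srebf2, -0.88 for Scap and -1.04 for Insig1. Fewer ovaries leave less to estimate the spread from.

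DESeq2 called 2420 of all genes, 1 COPII gene, 5 degradation genes, 2 other partners, 2 MBTPS1 substrates, 7 ATF6 chaperones and 3 liver X receptor genes. Library size as the sole scaling moved the median of all genes from 0.018 to 0.12, and it called 617 genes lower and 1112 higher against 813 and 559, 0 degradation genes, 2 other partners and 7 ATF6 chaperones. Requiring an absolute log2 fold change over 0.5 left 0 degradation genes, 1 ATF6 chaperone and 0 lipogenic targets called higher, and no filter gave 1 liver X receptor gene. Leaving out each ovary in turn called 320 to 1282 of all genes, 13 to 19 sterol targets, 6 to 10 lipogenic targets (0 of them higher when a Bnc1+/+ ovary or Bnc1tr/tr replicate 3 was left out), 1 to 2 sterol-sensing domain genes, 0 to 4 ATF6 chaperones, and 0 to 1 of the degradation genes, other partners, MBTPS1 substrates and liver X receptor genes. Over the other partners, MBTPS1 substrates and liver X receptor genes, the 1 came without Bnc1tr/tr replicate 2. The cause of these changes was not tested.

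No paired analysis was possible because the genotypes share replicate number 1 alone, and although the study compared littermates, no label ties an ovary to a litter.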
